A study of Anser cygnoides with 11 samples.

Results

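Kidneys from 5 goslings with visceral gout are described here, out of 11 kidneys of swan goose (Anser cygnoides) in all, the other 6 being from healthy goslings. All libraries labelled gout were taken, as replicates 1 to 5, and none was chosen or left out for its values. The labels give the disease state and the organ, renal tissue, and no strain, treatment that fits these animals, sex, age or batch. Polyadenylated RNA was sequenced, and the authors deposited FPKM, fragment numbers divided by the length of the transcript and by the number of mapped fragments of the library. The table has 19275 rows, of which 11783 had a mean of at least 1 FPKM over the 5 gout libraries and were kept. The question was which genes differed most between kidneys that share 1 diagnosis, and which functions moved together. With 1 group there was no test between groups, so values, ranges and counts are given.

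Birds excrete nitrogen mainly as uric acid, which the liver and kidney make from purines and which the proximal tubule of the kidney secretes into the urine. In visceral gout urate deposits on the internal organs, and it is known to follow damage to the kidney or loss of urate excretion. Proximal tubule cells depend on oxidative metabolism and carry the transporters for urate, phosphate, glucose and amino acids. Injured tubule cells of mammals are known to switch on stress and repair genes and to draw in white blood cells, among which the heterophil is the bird's counterpart of the mammalian neutrophil.

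The column totals were 365523, 246944, 229465, 328548 and 399990 FPKM in replicates 1 to 5. Read counts are not in the table, so depth is unknown. Between 10712 and 11927 rows reached 1 FPKM in a library, 11284 ± 557 on average (SD, n = 5). Replicate 4 had the most rows listed at 0, 3392, against 2446 to 2925 in the others. The kidney genes given next were above 0 in all 5 libraries, though LRP2 and AQP2 were under 1 FPKM in replicate 4. LRP2, the endocytic receptor megalin of the proximal tubule, was at 1.25, 3.02, 1.57, 0.746 and 6.79 FPKM in replicates 1 to 5. SLC12A1, the sodium-potassium-chloride cotransporter of the loop, was at 9.37, 16.9, 11.1, 2.19 and 10.0 FPKM, and the water channel gene AQP2 of the collecting duct at 2.64, 1.91, 5.12, 0.406 and 8.35 FPKM. Of 20 kidney transcription factors in a list, 17 were in the table and 15 were kept by their mean over the 5 libraries.

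The 10 most abundant rows of a library took 27.5% ± 1.65 of its FPKM (SD, n = 5). Of the 20 rows with the highest mean, 9 had no gene name. The first of these, MSTRG.5561, stood at 41090, 15921, 11044, 14327 and 38652 FPKM in replicates 1 to 5. FTH1, the heavy chain of the iron store ferritin, was the most abundant named gene at 16781, 13063, 6906, 27580 and 35199 FPKM. It was highest in replicate 5 and lowest in replicate 3, a range of about 5-fold. Ribosomal protein genes took 12.1% ± 0.546 of FPKM (SD, n = 5) and made up 23 of the 50 most abundant rows. RPL19 among them was at 1650, 1213, 1025, 1752 and 1668 FPKM.

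Some of the abundant rows varied far more than the ribosomal proteins. SPP1 encodes osteopontin, a secreted phosphoprotein that tubule cells make and that binds calcium crystals, and was at 2103, 688, 176, 2448 and 3062 FPKM. It was lowest in replicate 3, 17.4-fold under replicate 5, while the 6 control libraries spanned 274 to 691 FPKM. The hemoglobin subunit alpha-A row LOC106033601 was at 285, 1673, 2279, 3761 and 1994 FPKM and the hemoglobin subunit beta row LOC106048580 at 594, 2389, 4184, 6463 and 2477 FPKM. Both red cell genes were lowest in replicate 1 and highest in replicate 4. Reads of near-identical globin copies may have been split between rows, so these levels are uncertain. APOA1, the main protein of high-density lipoprotein, was at 2277, 505, 568, 2604 and 2394 FPKM, low in replicates 2 and 3. The mucin-4-like row LOC106044813, an epithelial surface mucin by its annotation, was at 2654, 896, 482, 2217 and 3241 FPKM, again lowest in replicates 2 and 3. The unnamed row MSTRG.8 spanned 22.1, 4527, 1655, 7848 and 170 FPKM, and its control values ran from 0 to 3743 FPKM.

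**Figure D1:**
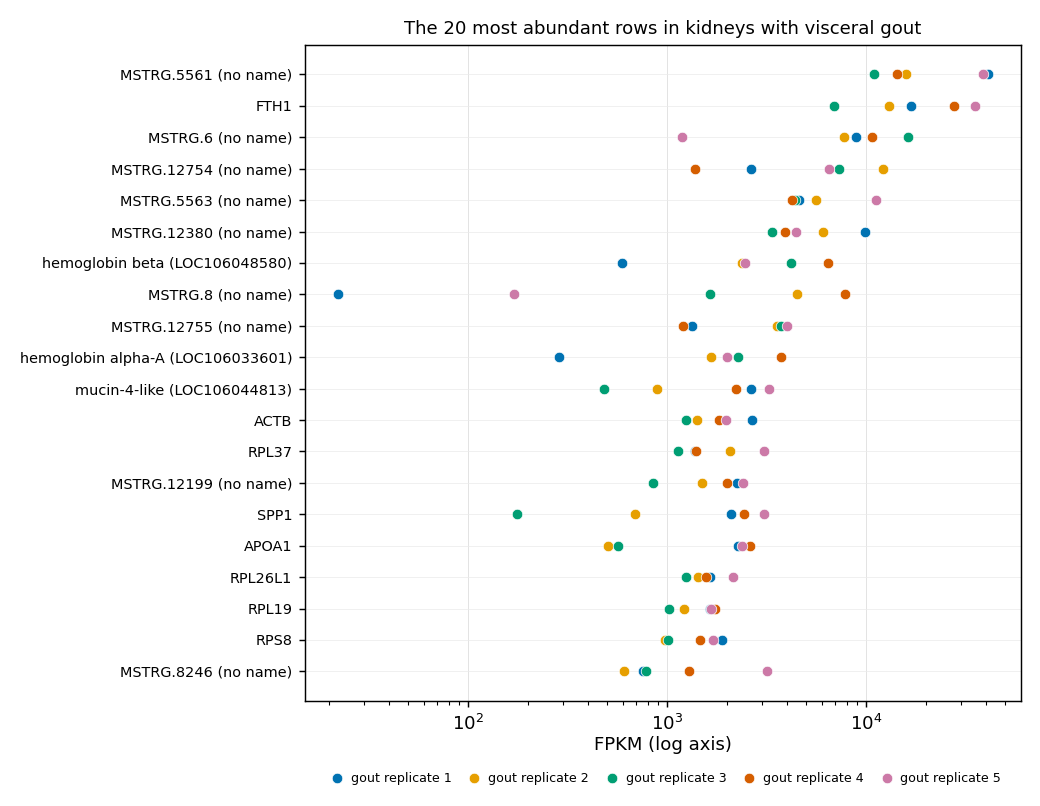
FPKM (log axis) of the 20 most abundant rows in each of the 5 gout libraries, 1 point per library, ordered by mean. Ribosomal proteins keep their points close together, while SPP1, both hemoglobin rows and the unnamed rows MSTRG.8 and MSTRG.6 spread over a range of 10-fold or more.

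The SD of log2(FPKM + 1) over the 5 libraries had a median of 0.52 over the kept rows. This SD holds differences between kidneys together with differences in library scale. It reached 1 in 1016 rows, or 8.62% of them. The same rows had a median SD of 0.32 over the 6 control libraries, where 436 reached 1. The difference between the groups was not tested. After upper quartile scaling the gout median was 0.43, and the control SD was not computed on scaled values. The SD was at least 1 in 5.33% of rows between 1 and 5 FPKM and in 19.7% of rows at 100 FPKM or more. The 1 added to FPKM lowers the SD of rows at low FPKM, so these shares do not compare rare with abundant genes. Of the 1016 rows, 132 were listed at 0 in at least 1 library and 234 had no name. Rows that hold only transcripts assembled by StringTie, with no RefSeq transcript, had a median SD of 0.62 against 0.50 for the rest. They supplied 414 of the 1016 rows and 65 of the 100 most variable, and 40 of those 100 were at 0 in some library.

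**Figure D2:**
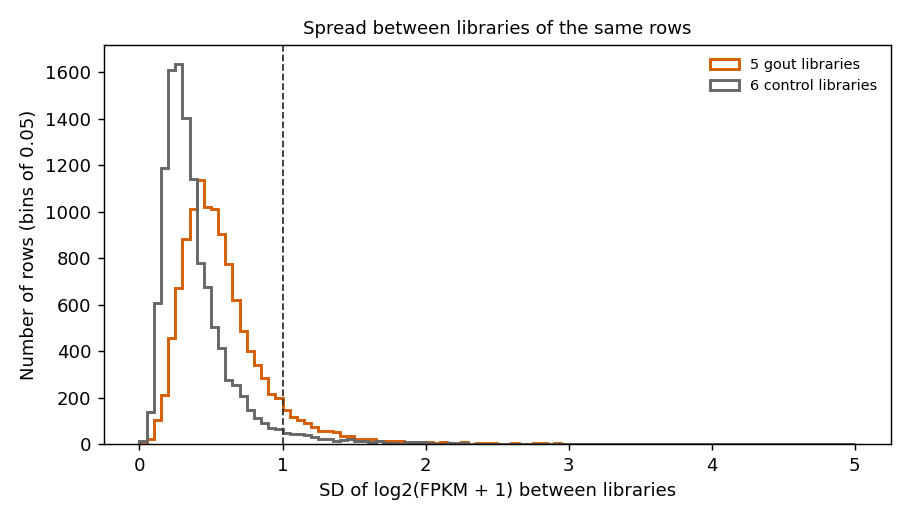
Number of rows by their SD of log2(FPKM + 1) (bins of 0.05) in the 5 gout libraries and, for the same 11783 rows, in the 6 control libraries, with a dashed line at an SD of 1. In FPKM as deposited, the gout curve lies to the right, with a median of 0.52 against 0.32.

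Pearson correlations of log2(FPKM + 1) across the 11783 rows, which are not independent replicates, lay between 0.809 for replicates 2 and 4 and 0.917 for replicates 2 and 5. The first principal component held 40.4% of the variance. It had weights of -0.51 and -0.50 on replicates 1 and 4, 0.48 and 0.50 on replicates 2 and 3, and 0.04 on replicate 5. The second component held 29.8% and was set mainly by replicate 5, with a weight of -0.71, opposite to replicate 4 at 0.52 and replicate 3 at 0.43.

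Which library was highest for a row depended strongly on the scale. In FPKM as deposited, 32.7%, 5.88%, 3.62%, 18.3% and 39.4% of all rows were highest in replicates 1 to 5, and 6.17%, 23.9%, 37.7%, 28.4% and 3.79% were lowest there. After each library was scaled to the same upper quartile, the shares were 17.1%, 23.8%, 20.3%, 20.8% and 17.9% for the highest and 17.8%, 15.8%, 12.7%, 38.8% and 14.8% for the lowest. Replicate 4 then held the lowest value of far more rows than any other library. Median log2 levels of the kept rows were 2.95, 2.47, 2.31, 2.58 and 2.94. Gene lists are therefore described by a level relative to all rows, the median over members of the deviation from their 5-library mean minus the same median over all kept rows. Counts of members are given as deposited and after this scaling, beside the share of all rows.

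**Figure D3:**
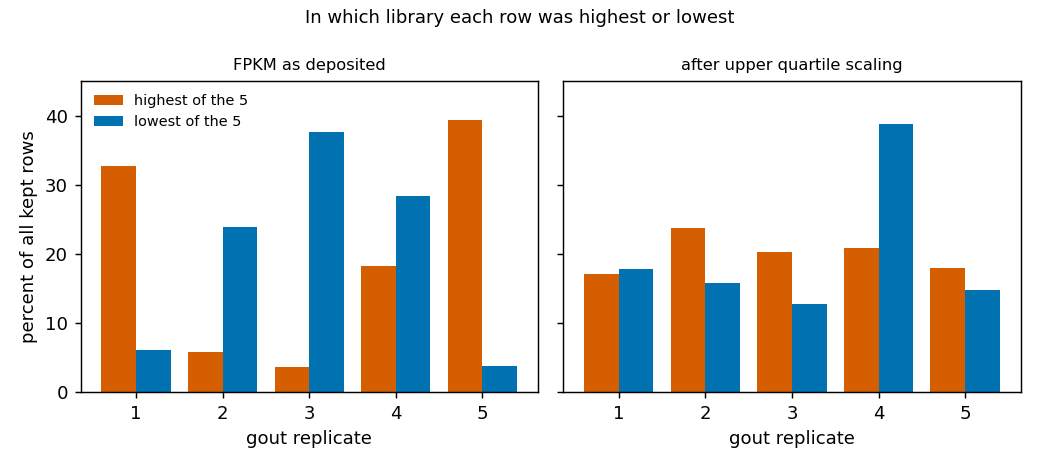
Percent of the 11783 kept rows whose highest (orange) or lowest (blue) value was in each gout replicate, in FPKM as deposited (left) and after upper quartile scaling (right). Replicates 1 and 5 hold most of the highest values on the left, while on the right the highest values are spread evenly and replicate 4 holds 38.8% of the lowest.

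Of 59 gene lists, 53 had at least 5 kept members. In bulk tissue, fewer cells of a type and less RNA per cell cannot be told apart, which holds for every list of cell type markers below. The widest ranges between libraries were those of the interferon response (2.03 on the log2 scale), macrophages (1.93), heterophils and granulocyte precursors (1.87), antigen presentation (1.78) and immediate early genes (1.70). Podocytes (0.19), cytoskeleton (0.21), collagens and matrix (0.22), translation factors (0.22) and ribosomal proteins (0.29) were among the lists of smallest range.

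**Figure D4:**
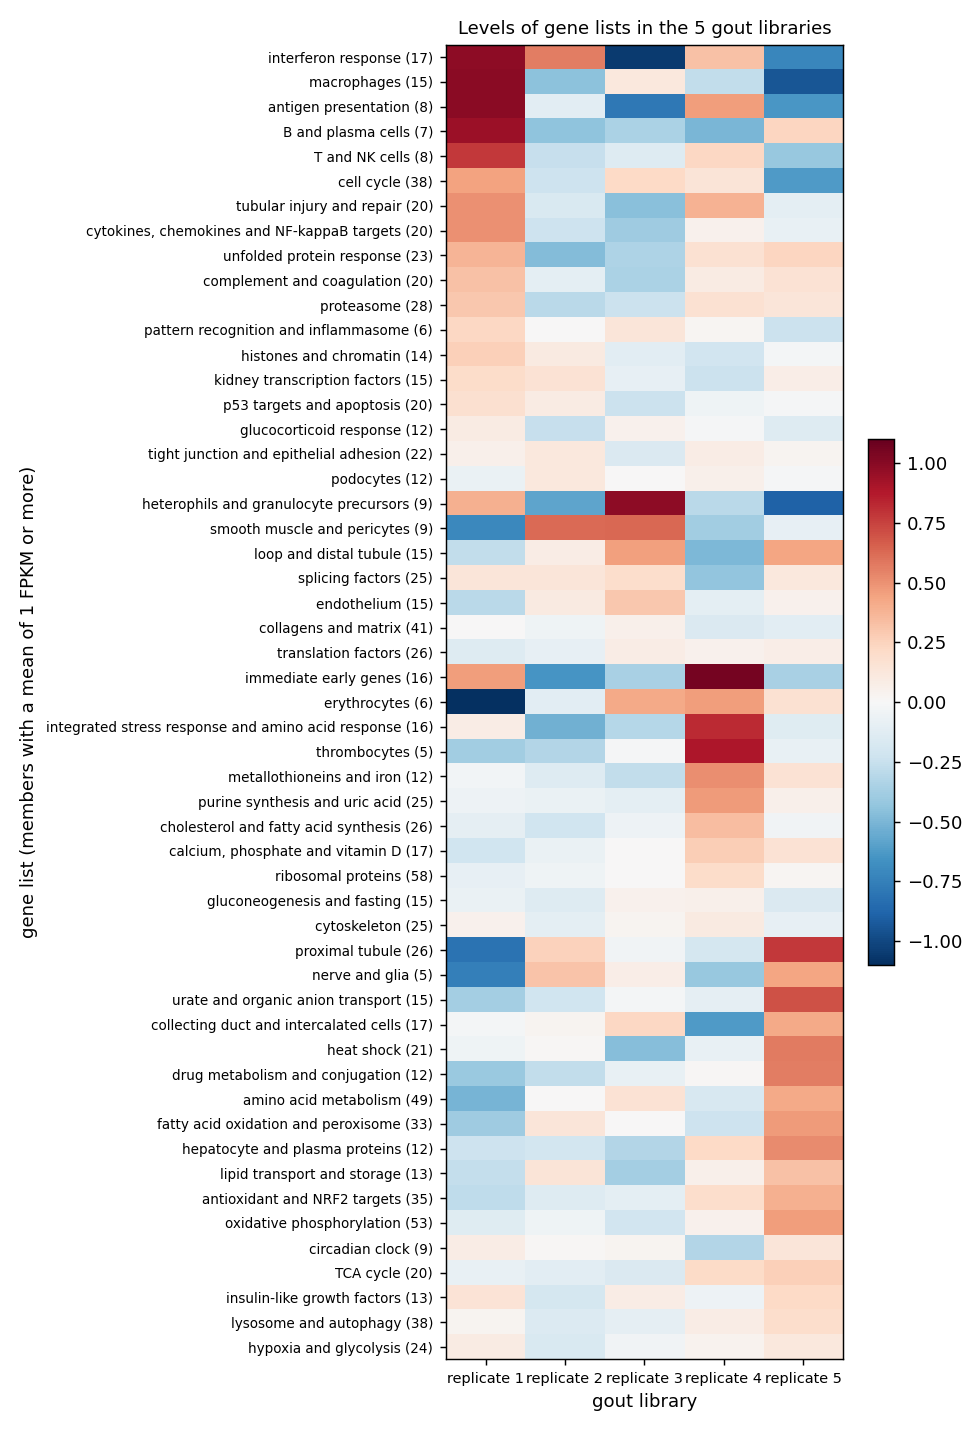
Level of each gene list relative to all rows, on the log2(FPKM + 1) scale, in the 5 gout libraries, for the 53 lists with 5 or more kept members (number in brackets), ordered by the library where the level was highest. Immune cell lists are highest in replicate 1 or 3, immediate early and integrated stress response genes in replicate 4, and proximal tubule, collecting duct and oxidative phosphorylation genes in replicate 5.

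Among the 30 rows with a symbol and the largest SD, 12 were high in replicates 1 and 4 and low in the other kidneys. The others had different patterns, including the 2 of largest SD, SMARCAD1 and RHOB, which have no RefSeq transcript and are described at the end. GDF15, a secreted cytokine of cell stress, was at 123, 3.09, 1.68, 253 and 9.84 FPKM in replicates 1 to 5, with an SD of 2.95. A less abundant GDF15 row was at 16.1, 0.880, 3.02, 8.36 and 2.37 FPKM, again highest in replicates 1 and 4. DUSP5, a phosphatase that switches off the kinase ERK, was at 91.5, 4.80, 3.95, 334 and 8.36 FPKM. PHLDA2, a pleckstrin homology domain protein, was at 235, 9.99, 8.82, 320 and 40.9 FPKM. In each of the 3 genes both high kidneys were at least 5-fold above the third. SQSTM1, the autophagy receptor p62, was at 305, 40.8, 41.4, 1052 and 82.7 FPKM. CDKN1A, the cell cycle inhibitor p21, was at 35.7, 3.46, 2.67, 85.4 and 5.58 FPKM. LIF, a cytokine of the interleukin 6 family, was at 23.4, 0.775, 0.185, 28.1 and 1.40 FPKM. LIF passed the filter only through replicates 1 and 4. Again replicates 1 and 4 did not overlap the other 3, and in controls GDF15 spanned 1.98 to 6.62, SQSTM1 66.6 to 91.2 and LIF 1.55 to 3.58 FPKM. Replicates 1 and 4 were also highest for EDA2R, a receptor of the tumour necrosis factor family (22.4 and 46.3 FPKM in replicates 1 and 4, 1.69 or less elsewhere), and for the metalloprotease ADAM8 (14.5 and 35.1 FPKM against 2.28 or less). WNT6, a secreted Wnt ligand, was at 32.9 and 30.1 FPKM in replicates 1 and 4 and at 2.45 FPKM or less in the others. The heat shock protein beta-11-like row LOC106048003 was at 450, 21.2, 3.75, 666 and 37.4 FPKM.

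To count this pattern, each row's 5 values were sorted and split at the widest gap. Only replicates 1 and 4 stood above the gap in 708 rows, or 6.01% of all, and in 160 of the 1016 rows with an SD of 1 or more (15.7%), the most common pattern there. Among the 40 most variable rows with a symbol and a RefSeq transcript it was found in 18. After upper quartile scaling it held for 3.79% of all rows and for 83 of the 841 rows with an SD of 1 or more (9.87%), so part of its frequency in the deposited values went with the scale.

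Immediate early genes, which growth factors and stress switch on within minutes to hours, followed this order. Their list level was 0.46, -0.65, -0.36, 1.05 and -0.36 in replicates 1 to 5. Of 16 members, 9 had an SD of 1 or more (8.62% of all rows), 7 had only replicates 1 and 4 above the widest gap (6.01% of all rows), and 9 were highest in replicate 4 (18.3% of all rows), or 11 after scaling (20.8%). JUN, a subunit of the transcription factor AP-1, was at 107, 19.4, 13, 129 and 42.7 FPKM. BTG2, an antiproliferative gene, was at 78.0, 15, 15.8, 199 and 46.7 FPKM, although a less abundant BTG2 row was highest in replicate 5, at 1.41, 3.81, 6.30, 0.781 and 11.7 FPKM. CYR61, a matrix protein induced by growth factors, was at 65.3, 5.74, 7.48, 26.7 and 16.9 FPKM and thus highest in replicate 1. FOS, the partner of JUN in AP-1, differed from the rest at 19, 5.93, 2.42, 12.3 and 20 FPKM, with its highest value in replicate 5.

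Genes of the integrated stress response, which act when amino acids are short or proteins misfold, were highest in replicate 4, with list levels of 0.08, -0.53, -0.31, 0.82 and -0.13. On both scales 8 of the 16 members were highest there (18.3% of all rows as deposited and 20.8% after scaling). DDIT3, the transcription factor CHOP, was at 56.8, 16.5, 15, 109 and 20.3 FPKM. CHAC1, an enzyme that degrades glutathione, was at 13.9, 2.94, 1.90, 45.9 and 8.89 FPKM. MTHFD2, a mitochondrial folate enzyme, was at 9.58, 4.16, 3.80, 27.2 and 6.77 FPKM. All 3 shared the order of replicate 4 before replicate 1 before the others. The oxidative stress genes OSGIN1 (42.3, 6.59, 4.76, 192 and 13.8 FPKM) and TXNRD1, thioredoxin reductase (1.68, 0.993, 0.960, 9.07 and 0.976 FPKM), were also highest in replicate 4, but the whole antioxidant list was highest in replicate 5, at levels of -0.28, -0.14, -0.11, 0.19 and 0.39.

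**Figure D5:**
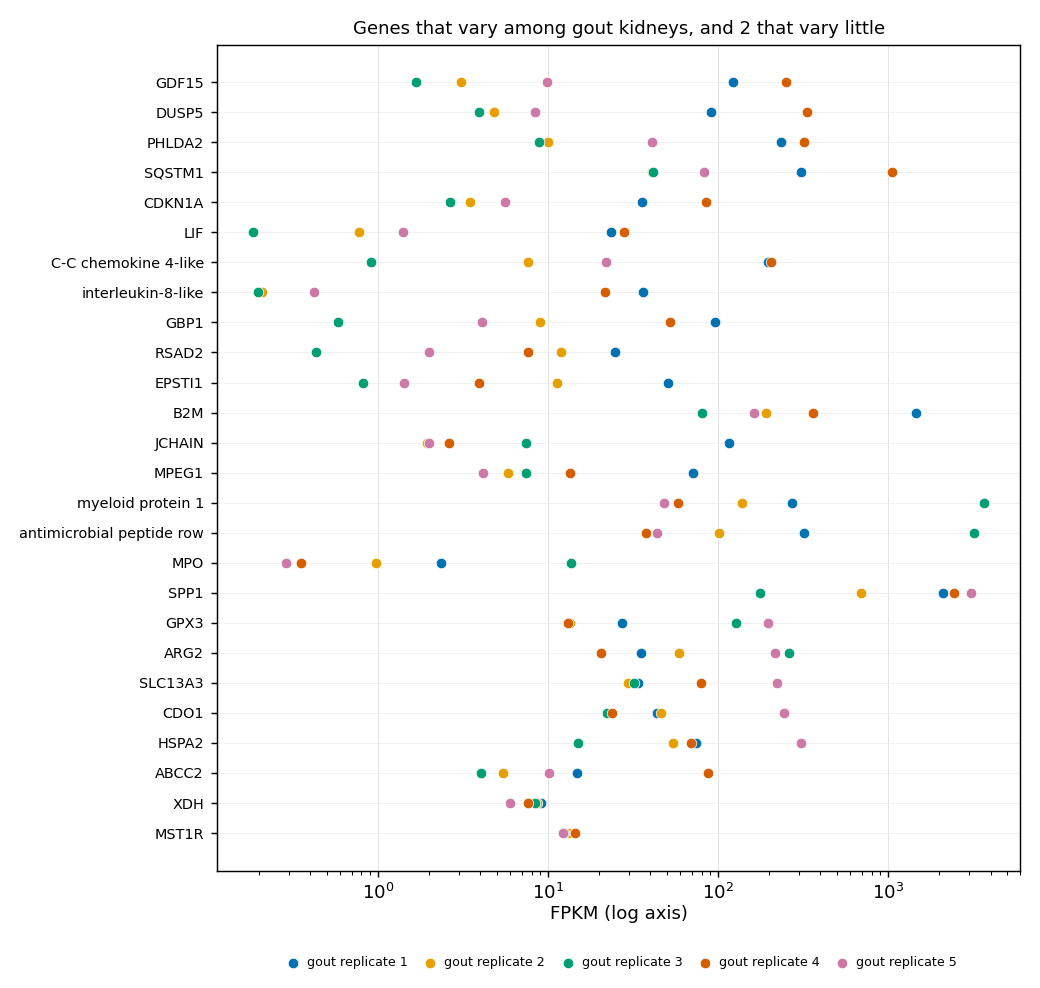
FPKM (log axis) of 26 genes in each gout library, 1 point per library: stress genes and chemokines at the top, then interferon and immune cell genes, tubule and metabolic genes, and XDH and the steadier MST1R row with small spread at the bottom. Replicates 1 and 4 (blue and red) stand to the right in the upper 9 genes, replicate 1 alone in JCHAIN and MPEG1, and replicate 3 (green) in myeloid protein 1, the antimicrobial peptide row and MPO.

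Of 6 chemokine rows among the most variable LOC rows, 5 had replicates 1 and 4 on top. The share of all rows with these 2 kidneys on top was not counted. The 6 rows were taken for their large SD. By the widest gap, replicates 1 and 4 alone stood above in 15.7% of rows with an SD of 1 or more, against 6.01% of all rows. LOC106041042, annotated C-C motif chemokine 4-like, was at 197, 7.6, 0.909, 206 and 22.0 FPKM, and LOC106041491, annotated C-C motif chemokine 3-like, at 128, 36.6, 0.677, 92.9 and 6.63 FPKM. The exception was LOC106041492, also annotated C-C motif chemokine 4-like, at 232, 113, 7.37, 82.5 and 104 FPKM, where replicates 2 and 5 lay above replicate 4. Of the 5, LOC106041491 also had replicate 2 above its widest gap. Such chemokines draw in monocytes and lymphocytes. Of 3 rows annotated as interleukin-8 or like it, a chemokine for heterophils, LOC106041921 was at 36.3, 0.208, 0.196, 21.5 and 0.421 FPKM, LOC106041919 at 20.7, 0.446, 0.160, 18.1 and 0.262 FPKM and LOC106041918 at 49.5, 4.56, 1.44, 30.7 and 8.93 FPKM. LOC106041921 and LOC106041919 passed the filter only through replicates 1 and 4. The chemokine rows belong to families of similar copies, and reads may have been split between them. The list of cytokines, chemokines and NF-kappaB targets, which does not hold these LOC rows, was also highest in replicate 1, at levels of 0.50, -0.23, -0.39, 0.05 and -0.08, with 12 of 20 members highest there (32.7% of all rows) and 10 after scaling (17.1%). SOCS3, a brake on cytokine signalling, was at 37.4, 4.34, 3.34, 29.2 and 58.1 FPKM and so high in replicate 5 as well. C9, a pore-forming complement protein, was at 31.9, 13.3, 2.14, 21.8 and 143 FPKM, highest in replicate 5.

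Interferon response genes, the antiviral programme that type I interferon switches on, had the widest range of all lists. Their levels were 0.98, 0.56, -1.05, 0.32 and -0.72 in replicates 1 to 5. Of 17 members, 15 were highest in replicate 1 (32.7% of all rows) and all 17 lowest in replicate 3 (37.7%), and after scaling the counts were 10 (17.1%) and 10 (12.7%). RSAD2, the antiviral enzyme viperin, was at 24.9, 12, 0.431, 7.63 and 2 FPKM. CMPK2, a nucleotide kinase encoded beside it in vertebrates, was at 35.6, 16.7, 1.59, 11 and 4.26 FPKM, and GBP1, an interferon-induced guanylate-binding protein, at 95.7, 8.97, 0.586, 52.2 and 4.10 FPKM. RSAD2 and CMPK2 thus had replicate 2 in second place, while GBP1 had replicate 4. EPSTI1, an interferon-responsive gene outside the list, was at 50.9, 11.3, 0.812, 3.91 and 1.42 FPKM. LOC106044214, annotated as an interferon-induced protein with tetratricopeptide repeats, was at 79.9, 50.6, 1.99, 7.6 and 5.57 FPKM.

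Antigen presentation was likewise highest in replicate 1 and lowest in replicate 3, with levels of 0.99, -0.12, -0.79, 0.46 and -0.64, and 7 of 8 members were highest in replicate 1 (32.7% of all rows), 5 after scaling (17.1%). B2M, the light chain of class I histocompatibility molecules, was at 1465, 191, 80.7, 364 and 162 FPKM. TAP1, which carries peptides to them, was at 43.6, 9.85, 3.36, 30.9 and 9.52 FPKM. Both were highest in replicate 1, next highest in replicate 4 and lowest in replicate 3. B2M belongs to more than 1 list, as do the immune genes CD74, C1QA and C1QB. Lists that share rows do not vary independently.

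Markers of white blood cells other than granulocytes were highest in replicate 1, the kidney with the highest interferon level. All 15 macrophage genes in the table were kept, 13 were highest in replicate 1 (32.7% of all rows), 11 after scaling (17.1%), and the list level was 0.99, -0.45, 0.12, -0.27 and -0.94. Their summed FPKM was 736, 148, 173, 285 and 172. MPEG1, a pore-forming protein of macrophages, was at 71.0, 5.82, 7.46, 13.5 and 4.17 FPKM, and C1QB, a chain of complement C1q that macrophages make, at 135, 13.1, 8.06, 69.6 and 9.92 FPKM. In control libraries MPEG1 spanned 53.2 to 238 FPKM, so replicate 1 alone lay within the control range and the other 4 below it. How many of all rows are split this way was not counted.

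Of 25 listed genes of T and NK cells, 19 were in the table and 8 were kept. All 8 were highest in replicate 1 (32.7% of all rows), 7 after scaling (17.1%), at list levels of 0.78, -0.25, -0.14, 0.23 and -0.42. Their sum was 155, 44.4, 48.5, 65.4 and 94.9 FPKM, of which GATA3, a transcription factor that the collecting duct also uses, gave 74.3, 22.2, 29.3, 27.9 and 65.0 FPKM. CD8B was listed at 0 in all 5 libraries. CD2, a kept gene at 5.15, 1.05, 1.04, 1.49 and 0.334 FPKM, passed the filter only through replicate 1. PRF1, the perforin of killer cells, was at 9.38, 0.490, 0.571, 2.20 and 1.13 FPKM, and CD3E, a chain of the T cell receptor complex, at 11, 1.01, 2.19, 3.81 and 2.89 FPKM. Both genes had replicate 1 well apart and replicate 4 second.

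Antibody-producing cells stood out in the same kidney. JCHAIN, which joins the chains of secreted antibodies, was at 116, 1.95, 7.47, 2.62 and 1.99 FPKM. LOC106049915, annotated Ig mu heavy chain disease protein-like, was at 108, 1.30, 3.41, 4.44 and 3.36 FPKM. In controls JCHAIN spanned 76.6 to 523 FPKM, so 4 of the 5 gout kidneys lay below every control kidney and replicate 1 within their range. The share of all rows split this way was not counted. Of 21 listed genes of B and plasma cells, 17 were in the table and 7 were kept, with levels of 0.94, -0.44, -0.35, -0.50 and 0.24 (0.03 in replicate 4 when replicate 1 was left out). On both scales 4 of the 7 were highest in replicate 1 (32.7% and 17.1% of all rows). Among them was MZB1, at 5.83, 0.606, 0.515, 0.316 and 1.73 FPKM, which passed the filter only through replicate 1. How far the interferon, antigen presentation and chemokine values go with the number of white blood cells was not tested.

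Several heterophil granule genes had a different kidney on top, replicate 3. LOC106032697, annotated myeloid protein 1, a granule protein of bird granulocytes, was at 273, 137, 3660, 58.4 and 48.4 FPKM. LOC106038139, annotated as an antimicrobial peptide, was at 319, 101, 3185, 37.9 and 43.6 FPKM. The lysozyme g row LOC106035746, an enzyme that cleaves bacterial walls, was at 17.3, 10.0, 169, 5.41 and 19 FPKM. All 3 rows were at least 8-fold higher in replicate 3 than in any other gout kidney, and all 3 control ranges reached as high, up to 3945 FPKM for myeloid protein 1. MPO, myeloperoxidase, a granule enzyme of mammalian neutrophils, was at 2.36, 0.968, 13.6, 0.353 and 0.287 FPKM. MPO passed the filter only through replicate 3. LY86, a lymphocyte antigen also known as MD-1, was at 10.8, 6.55, 60.9, 3.84 and 6.22 FPKM, and TMED3, a cargo protein of the secretory pathway, at 8.90, 7.75, 72.9, 7.07 and 16.2 FPKM. Only replicate 3 stood above the widest gap in 0.951% of all rows and in 30 of the 1016 variable rows.

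The 9 heterophil and precursor genes in the table, all kept, had levels of 0.39, -0.58, 0.98, -0.30 and -0.89, with 4 members highest in replicate 3 (3.62% of all rows), or 6 after scaling (20.3%). Another 4 were highest in replicate 1 (32.7%), or 3 after scaling (17.1%). NCF1, a subunit of the NADPH oxidase, was at 6.99, 4.53, 13.7, 4.12 and 3.54 FPKM. CSF3R, the receptor for granulocyte colony-stimulating factor, was instead highest in replicate 1, at 15.4, 1.85, 7.34, 2.21 and 2.58 FPKM. LYZ, lysozyme C, was also highest there, at 19.8, 1.48, 8.6, 13.3 and 1.93 FPKM. The summed FPKM of the 9 genes was 817, 376, 1033, 1138 and 993, highest in replicate 4. The kidney with the highest list level, replicate 3, was the one with the lowest interferon and chemokine values.

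Red cell and vessel markers varied in other ways. The 6 kept erythrocyte genes had levels of -1.1, -0.12, 0.42, 0.46 and 0.17, and 4 of the 6 were lowest in replicate 1 (6.17% of all rows), 5 after scaling (17.8%). HEMGN, a nuclear protein of red cell precursors, was at 0.105, 2.22, 0.672, 6.37 and 0.376 FPKM. HEMGN passed the filter only through replicate 4. The list of 5 kept thrombocyte genes had a level of 0.89 in replicate 4 and -0.01 or less elsewhere. Of these, 4 were highest in replicate 4 (18.3% of all rows), 3 after scaling (20.8%), and 1 was lowest there on both scales. ITGB3, an integrin chain of thrombocytes and other cells, was at 17.6, 10.1, 8.14, 49.8 and 15.3 FPKM. Smooth muscle and pericyte genes had levels of -0.71, 0.62, 0.63, -0.38 and -0.09, and on both scales 5 of 9 members were lowest in replicate 1 (6.17% and 17.8% of all rows). MYH11, the myosin of smooth muscle, was at 3.57, 26.9, 15.2, 6.29 and 17.7 FPKM, and LMOD1, an actin nucleator of smooth muscle, at 1.81, 9.23, 11, 4.83 and 7.06 FPKM. Both were lowest in replicate 1.

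Proximal tubule genes were, as a list, highest in replicate 5 and lowest, relative to other rows, in replicate 1. Their list level was -0.81, 0.25, -0.04, -0.19 and 0.78. Of 26 members 22 were highest in replicate 5 (39.4% of all rows) and 15 after scaling (17.9%), while 5 were lowest in replicate 1 (6.17%), 20 after scaling (17.8%). SLC13A3, a carrier of dicarboxylates, was at 33.7, 29.5, 32.0, 79.0 and 223 FPKM. SLC2A2, a glucose transporter, was at 3.65, 25.7, 9.17, 39.8 and 68.8 FPKM. SLC22A2, a transporter of organic cations, was at 0.0873, 2.82, 5.03, 0.103 and 9.41 FPKM, near 0 in replicates 1 and 4. A row named SLC34A1;RGS14, annotated sodium-dependent phosphate transport protein 2A, went another way at 109, 33.5, 13.6, 301 and 76.8 FPKM, highest in replicate 4. Its joint name kept it out of the list, where SLC34A1 stands as a row with no RefSeq transcript and a mean of 2.38 FPKM. RGN, a calcium-binding protein also called regucalcin, was at 9.08, 21, 38.1, 13.2 and 62.5 FPKM, and all of these lay under its control range of 75.2 to 595 FPKM. The share of all rows lying wholly under their control range was not counted.

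Later segments of the nephron were lowest in replicate 4. The loop and distal tubule list had levels of -0.27, 0.08, 0.45, -0.49 and 0.43, and the collecting duct list -0.02, 0.03, 0.23, -0.62 and 0.42. Of 15 loop and distal tubule genes, 6 were lowest in replicate 4 (28.4% of all rows), 9 after scaling (38.8%). Of 17 collecting duct genes, 12 were lowest there and 14 after scaling. ELF5, a transcription factor of the principal cell, was at 8.62, 5.78, 4.23, 1.15 and 9.77 FPKM. RHCG, the ammonia channel of the collecting duct, was at 8.17, 14.9, 29.9, 5.51 and 30.2 FPKM, and SCNN1B, a chain of the epithelial sodium channel, at 8.85, 3.85, 7.97, 3.47 and 18.5 FPKM. The median level of the podocyte list hardly differed, but 2 of its 12 members had an SD of 1 or more (8.62% of all rows). The most variable was TCF21, with an SD of 1.74, whose values are given further below. WT1, a podocyte transcription factor, was at 12.9, 7.72, 3.43, 2.79 and 9.12 FPKM.

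The transporter list and the purine list were highest in different kidneys. The list of urate and organic anion transporters was highest in replicate 5, with levels of -0.37, -0.22, -0.02, -0.10 and 0.70, and 10 of 15 members were highest there (39.4% of all rows), 6 after scaling (17.9%). ABCC2, a pump that exports organic anions from cells, went the other way at 14.9, 5.45, 4.05, 87.4 and 10.2 FPKM, with replicate 4 alone above the control range of 5.28 to 25.9. The transporter list shares SLC22A2 and SLC13A3, among other genes, with the proximal tubule list, so these lists do not vary independently. Purine synthesis and uric acid genes were highest in replicate 4, at -0.06, -0.07, -0.11, 0.47 and 0.06. There 9 of 25 members had their highest value (18.3% of all rows), 11 after scaling (20.8%). As many, 9, were highest in replicate 5 (39.4% of all rows), 4 after scaling (17.9%). HPRT1, which salvages purine bases, was at 3.38, 3.49, 8.99, 8.42 and 21.9 FPKM. ADK, adenosine kinase, was lowest in replicate 4, at 7.80, 7.84, 5.64, 0.943 and 16.4 FPKM. XDH, the enzyme that makes uric acid, varied little in FPKM as deposited, at 9.10, 8.65, 8.42, 7.65 and 5.95 FPKM and an SD of 0.21. Over all rows of the table, kept or not, the upper quartiles of the libraries were 8.98, 5.9, 5.21, 6.95 and 8.85 FPKM. The scaling used those of the kept rows, which are not given here but differed too. A row level as deposited is therefore not level after scaling.

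The 2 largest lists of energy metabolism were highest in replicate 5. Oxidative phosphorylation genes had levels of -0.13, -0.05, -0.21, 0.05 and 0.46, and 45 of 53 members were highest in replicate 5 (39.4% of all rows), 40 after scaling (17.9%). ATP5I, a small subunit of ATP synthase, was at 80.3, 159, 70.9, 104 and 358 FPKM. Members did not all share this order, since ATP5B, the catalytic beta subunit of the same enzyme, was at 362, 128, 149, 575 and 391 FPKM. Fatty acid oxidation and peroxisome genes had levels of -0.39, 0.13, 0.00, -0.23 and 0.47, with 26 of 33 members highest in replicate 5 (39.4% of all rows) and 15 after scaling (17.9%). HADHA, of the mitochondrial trifunctional protein, was an exception at 59.9, 35.8, 38.9, 168 and 83.8 FPKM.

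Amino acid metabolism had levels of -0.51, 0.00, 0.16, -0.18 and 0.42. Its members were highest in replicate 5 in 38 of 49 cases (39.4% of all rows), but in 17 after scaling (17.9%). In replicate 1, 13 were lowest (6.17%), 22 after scaling (17.8%). GLDC, which cleaves glycine, was at 3.45, 7.6, 11.8, 2.44 and 30.1 FPKM. CDO1, which oxidizes cysteine, was at 43.5, 45.9, 22.3, 23.8 and 243 FPKM, with replicate 5 far above the rest. ARG2, the mitochondrial arginase, was high in replicates 3 and 5, at 35.3, 59.2, 260 and 215 FPKM in replicates 1, 2, 3 and 5 and 20.4 FPKM in replicate 4. GPX3, a glutathione peroxidase that the proximal tubule secretes into plasma, was also high in replicates 3 and 5, at 27.1, 13.5, 128, 13.1 and 196 FPKM, with replicate 5 on top.

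Protein folding and turnover genes also differed between kidneys. Heat shock genes had levels of -0.05, 0.01, -0.47, -0.08 and 0.57. Of 21 members 12 were highest in replicate 5 (39.4% of all rows), 9 after scaling (17.9%), and 14 were lowest in replicate 3 (37.7%), 8 after scaling (12.7%). HSPA2, a chaperone of the HSP70 family, was at 74.1, 54.1, 15.1, 69.6 and 306 FPKM. HSPA8, the constitutive chaperone of that family, was at 550, 192, 73.8, 598 and 559 FPKM. SERPINH1, the collagen chaperone HSP47, was at 125, 32.6, 13.3, 66.1 and 104 FPKM. The unfolded protein response list was highest in replicate 1, at 0.37, -0.48, -0.34, 0.17 and 0.24, with 11 of 23 members highest there (32.7% of all rows), 10 after scaling (17.1%). HSPA5, the chaperone BiP, was at 199, 68.5, 42.3, 162 and 276 FPKM and so highest in replicate 5. Proteasome genes were likewise highest in replicate 1 and lowest in replicate 2, at levels of 0.30, -0.30, -0.24, 0.17 and 0.13, with 16 of 28 members highest in replicate 1 (32.7% of all rows), 15 after scaling (17.1%). PSMA7, a subunit of its core, was at 242, 68.5, 56.5, 97.7 and 157 FPKM.

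Cell cycle genes were highest in replicate 1 and lowest in replicate 5, with levels of 0.44, -0.23, 0.22, 0.14 and -0.62. Of 38 members 26 were highest in replicate 1 (32.7% of all rows), 17 after scaling (17.1%), and 14 were lowest in replicate 5 (3.79%), 23 after scaling (14.8%). CDK1, the kinase that starts mitosis, was at 38.5, 8.17, 7.95, 11.7 and 5.47 FPKM. CDC20, an activator of the anaphase-promoting complex, was at 25.4, 4.45, 6.35, 32.3 and 7.80 FPKM. Splicing factors stood apart in 1 kidney: their levels were 0.13, 0.13, 0.19, -0.43 and 0.12, and 20 of 25 members were lowest in replicate 4 (28.4% of all rows), 23 after scaling (38.8%). TRA2A, a splicing regulator, was at 32.8, 29, 15.9, 7.33 and 31 FPKM, and LUC7L3, a splicing-associated protein, at 28.6, 25.4, 20.9, 6.61 and 26.8 FPKM. Replicate 4 is also the library with the most rows at 0 and with the highest immediate early genes; what RNA quality contributes was not tested.

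Some genes were nearly alike in the 5 kidneys in FPKM as deposited. Upper quartiles over all rows of the table, kept or not, ran from 5.21 FPKM in replicate 3 to 8.98 FPKM in replicate 1. Those of the kept rows, used for scaling, differed too, so steadiness on this scale is lost after scaling. Among rows with a symbol and a mean of 10 FPKM or more, MST1R, a receptor tyrosine kinase, had the smallest SD, 0.09, at 13.1, 13.3, 12.4, 14.5 and 12.2 FPKM. A second MST1R row was not steady, at 12.7, 4.10, 3.43, 24.4 and 10.3 FPKM. ANXA6, a membrane-binding annexin, was at 44.7, 40.1, 36.9, 44.4 and 45.7 FPKM. FKBP5, a co-chaperone of the glucocorticoid receptor, had 2 rows. The more abundant, which has no RefSeq transcript, was at 345, 369, 270, 295 and 344 FPKM, against 25.4 to 90.4 FPKM in control. The other, MSTRG.10089, was among the 10 steadiest rows at 117, 120, 103, 137 and 124 FPKM, against 14.2 to 48.2 FPKM. STC2, the secreted glycoprotein stanniocalcin 2, was at 74.3, 40.9, 61.6, 74.2 and 95.2 FPKM against 1.88 to 5.43 FPKM in control. IGFBP1, a binding protein of insulin-like growth factors, was at 41.5, 16.4, 19.2, 37.3 and 21.6 FPKM against 1.86 to 4.80 FPKM. In these 3 genes every gout kidney was above every control kidney, and none of them had the wide spread of GDF15 or SPP1. The named genes were chosen with earlier results of these data known, so their separation from control is no independent finding. The share of all rows without such overlap was not counted, so how unusual this is remains unknown. COL1A1, a chain of type I collagen, was at 19, 7.66, 6.75, 11.5 and 12.4 FPKM, with an SD of 0.54 close to the median of all rows.

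Several symbols among the most variable belong to rows with no RefSeq transcript. Of the 30 most variable rows with a symbol, 9 were of this kind, and the 30th row had an SD of 1.88 against 1.83 for the 31st. SMARCAD1, a chromatin remodeller, was listed at 0 in replicates 1, 2 and 3 and at 21.5 and 82.7 FPKM in replicates 4 and 5. RHOB, a small GTPase, was listed at 0 in replicates 1 and 3 and at 32.0, 70.5 and 33.4 FPKM in replicates 2, 4 and 5. MRAP2, an accessory protein of melanocortin receptors, was at 33.6 FPKM in replicate 1 and listed at 0 in the others. LASP1, an actin-binding protein, was listed at 0 in replicate 1 and at 30.2 to 78.2 FPKM in the rest. The first 2 and LASP1 each had another row with a value above 0 in all 5 libraries, at 1 to 2.33 FPKM for SMARCAD1, 9.63 to 35.3 FPKM for RHOB and 13.5 to 19 FPKM for LASP1. A 0 in these rows can be a failed estimate of an assembled transcript, so no fold is given.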

How the data were processed

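RNA from kidneys of 5 goslings with visceral gout and 6 healthy goslings was sequenced. Per the labels' protocols, polyadenylated RNA was selected and read as paired ends on an Illumina instrument. HISAT and StringTie were used, per the submitters' processing notes; for the genome build, the sources used here give none. The authors deposited 1 FPKM column per library. The labels also hold text on tanks of water and on adipose tissue, which is at odds with kidneys of goslings and was left unused.

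Values were analysed as log2(FPKM + 1) with Python 3.11.15, pandas 2.3.3 and numpy 2.4.6 (figures with matplotlib 3.10.9). Rows averaging 1 FPKM or more over the gout libraries were kept. No test between groups was made, and single libraries lying apart were compared with Dixon's critical value. Since FPKM is relative to the mapped fragments of a library, a few abundant rows can lower all others. Of 5802 rows with a LOC number, 3528 matched the RefSeq annotation by gene ID and 924 took its symbol, and 1087 rows had no name. Where a symbol had several rows, the most abundant stood for it in the gene lists. The 59 gene lists (1628 symbols, 1191 in the table, 1023 kept) and the named genes were chosen with earlier results of these data known. No symbol of the mitochondrial genome list was found in the deposited table. Named genes were the 20 most abundant rows, the 30 symbols and 10 LOC rows of largest SD, up to 4 members of largest SD per list, 15 genes chosen in advance, for each library the 5 rows farthest above and the 5 farthest below the rest, and the 10 steadiest rows. A few named genes are not reported here. The split at the widest gap and the ranking of rows with a RefSeq transcript, with the LOC rows it adds, were chosen after the data were seen. In simulated data made from the 11783 kept rows, 97.0% of 200 rows with a planted spread and 5 of 5 planted lists were recovered. The planted spread was far above that of the other simulated rows, so high recovery was likely in advance. This checks the code and says nothing about weaker differences. Other pseudocounts, filters, scalings and measures of spread were tried, and each library was left out.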

Additional observations from a re-analysis of the deposited data

Results flagged for a closer look

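In each group of 5 gout values, the library farthest from the rest was compared with Dixon's 95% critical value, which chance passes in about 1 of 20 groups. Of 178 groups examined (most genes printed here, list levels and library measures), 12 passed. Several of the genes were named for their spread or for 1 library lying apart, which makes passing more likely.

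Gout replicate 1 stood apart in 5 of them. JCHAIN was at 116 FPKM there, with 7.47 FPKM as the next value, and the Ig mu heavy chain disease protein-like row LOC106049915 was at 108 FPKM, with 4.44 next. MRAP2 was at 33.6 FPKM and listed at 0 in the others. LASP1 and THADA were both listed at 0 in replicate 1, with the next lowest values at 30.2 and 11.7 FPKM. The last 3 are rows without a RefSeq transcript, and LASP1 and THADA each had another row that was above 0 in all 5 libraries.

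Gout replicate 4 stood apart in 5. The splicing factor list was at -0.43 there, against 0.12 as the next lowest, and the circadian clock list at -0.32, against 0.01. LUC7L3, a splicing-associated gene, was low at 6.61 FPKM, next 20.9. ZNHIT3, a zinc finger protein, was at 0.0197 FPKM, next 9.65, and 1 control library also had it near 0. TXNRD1 was high at 9.07 FPKM, next 1.68.

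Gout replicate 5 stood apart in the unnamed abundant rows MSTRG.6, low at 1187 FPKM with 7791 next, and MSTRG.5563, high at 11298 FPKM with 5590 next.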

How the results depend on the processing

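The spread depended on the pseudocount. With 0.1 in place of 1, 2007 rows had an SD of 1 or more, the median SD was 0.63 and 60 of the 100 most variable rows were shared; with 5 the count was 313 and the median 0.32. Without a filter the median SD was 0.37, and with a mean of at least 5 FPKM 0.57. Quantile normalization gave 0.41 and upper quartile scaling 0.43, with 818 and 843 rows at an SD of 1 or more, and the TPM scale gave 1511 rows, the filter of these last 2 being applied to scaled values. Ranking by coefficient of variation or by median absolute deviation kept 33 and 30 of the 100 most variable rows. Among rows with a RefSeq transcript, a choice made after the data were seen, 602 had an SD of 1 or more and the median was 0.50. Leaving out each library gave medians of 0.48 to 0.53, and first components holding 39.8% to 53.8% of the variance. Apart from fewer rows or libraries in the last settings, the cause of these shifts was not tested.

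The library with the highest level was the same for 44, 48 and 46 of the 53 lists under quantile normalization, upper quartile scaling and the TPM scale, and for 38 without a filter. Among lists described above, erythrocytes were highest in replicate 3 rather than 4 under quantile and upper quartile scaling and with a pseudocount of 5. Smooth muscle moved to replicate 2 with a pseudocount of 0.1, without a filter, with a filter at 5 FPKM and on the TPM scale. Loop and distal tubule genes moved from replicate 3 to 5 with a pseudocount of 5 and without a filter. Podocytes moved from replicate 2 to 5 without a filter and to 1 with a filter at 5 FPKM. Cytokines were highest in replicate 4 with that filter. Some other lists moved as well. Of all levels, 1 at or beyond 0.5 turned sign: B and plasma cells in replicate 4, at -0.52 to 0.03 with each library left out, the highest being without replicate 1. The 100 most abundant rows shared 95 to 99 with the main ranking in the 3 scalings and when libraries were left out. No paired analysis was possible because 1 group is described, with no test between groups. FPKM holds no depth, so counting error is unknown.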

Other observations

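Some genes that belong to no list described above were also far higher or lower in a single kidney. GNB1, a beta subunit of G proteins, was at 3.39, 47, 8.81, 4.96 and 10.3 FPKM in replicates 1 to 5 and so highest in replicate 2. TOB1, an antiproliferative gene, was at 30, 16.6, 15.8, 12.2 and 1.04 FPKM, and NXN, a thioredoxin-like protein, at 40.4, 22.6, 14.8, 35.6 and 2.17 FPKM. Both were lowest in replicate 5. BASP1, a membrane-bound protein known from neurons, was at 6.77, 6.73, 6.13, 0 and 7 FPKM, listed at 0 in replicate 4 alone, but a more abundant BASP1 row was at 37.1, 18.5, 12.1, 12.9 and 19.2 FPKM. The endogenous retrovirus group K row LOC106029425 was at 31.5, 15.4, 9, 465 and 46.9 FPKM, against 15.8 to 37.8 FPKM in control libraries. Its reads may be shared with other copies of the element.

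Of the list for exocrine pancreas and gut, 2 genes were kept, and they went opposite ways. CLPS, the pancreatic cofactor colipase, was at 7.25, 18.8, 72, 22.7 and 50.1 FPKM in the gout kidneys and at 0.29 to 1.45 FPKM in controls. The share of all rows without overlap between the groups was not counted. VIL1, the villin of brush borders, was at 7.13, 2.62, 2.67, 3.66 and 2.92 FPKM. The 4 kept genes of the adrenal list did not share an order. CHGA, the granule protein chromogranin A of endocrine cells, was at 5.58, 2.78, 27.1, 7.53 and 25.7 FPKM, high in replicates 3 and 5. CHGB, another granule protein of these cells, was at 45.1, 27.3, 28, 27.5 and 109 FPKM, STAR, which starts steroid synthesis, at 11.9, 13.3, 8.35, 8.79 and 10.5 FPKM, and FDX1, a ferredoxin of steroid synthesis, at 11.9, 9.91, 8.73, 10.5 and 22.5 FPKM.

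CYP24A1, which breaks down active vitamin D, was highest in replicate 5, at 5.86, 4.73, 2.48, 8.45 and 33.8 FPKM. TCF21, a transcription factor of podocytes and stroma, was at 50.9, 2.53, 1.9, 10.8 and 18.7 FPKM.

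Over the 251 KEGG pathways of the deposited annotation with at least 10 kept rows, chosen after the data were seen, levels relative to all rows ranged most for Pertussis, a set of complement and innate immune genes (0.55, -0.21, -0.47, 0.05 and 0.06), for the synthesis and degradation of ketone bodies (-0.48, -0.07, 0.20, -0.03 and 0.51) and for retinol metabolism (-0.41, 0.02, -0.04, 0.04 and 0.51). Of the pathways, 40, 33, 42, 65 and 71 were highest in replicates 1 to 5.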
